A study of Mus musculus with 2 samples.

Results

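Glycolysis turns glucose into pyruvate and lactate in the cytosol, and many of its enzymes are under the control of the hypoxia-inducible factor HIF, a transcription factor whose alpha subunit is hydroxylated by oxygen-dependent prolyl hydroxylases and then destroyed. When oxygen is short the alpha subunit persists and switches on glucose uptake, glycolysis, lactate export, blood vessel growth factors and proteins that remodel mitochondria. Fibroblasts in culture rely strongly on glycolysis, also in room air. The genes described here are 39 listed genes of this system, 22 for glycolytic enzymes and glucose or lactate transporters and 17 for HIF itself, its regulators and its other targets. They were matched by symbol to probe sets annotated with a single gene symbol, which gave 36 of the 39, with 77 probe sets, out of 18194 genes with 34958 probe sets in all. Gpi1 and Eno1 had no such probe set, and the 3 probe sets of Bnip3l are shared with a pseudogene, so these genes were not analysed here.

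The knockout group was 1 Affymetrix Mouse430_2 array of RNA from mouse embryonic fibroblasts (MEFs) of Malat1 knock-out mice, and the control was 1 array of RNA from wildtype MEFs, both of strain C57BL/6. MEFs are fibroblasts grown from minced embryos, here taken at embryonic day 13.5 and kept for 2 weeks without treatment. Malat1 is an abundant long noncoding RNA of the nucleus. The design of the Malat1 allele, the number of embryos behind each RNA and the oxygen and glucose of the cultures are not given in the labels. Because each genotype has 1 array, the differences have no replicate check and none carries a p-value. The number of arrays limits the precision.

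All values are taken as log2 signals, a scale read from their range, and each difference is knockout minus wildtype. A gene is represented by its brightest probe set, and it counts as measured where that probe set reaches the floor, the median signal of the array (5.44 for the knockout and 5.39 for the wildtype array). Malat1 itself read 4.53 on the knockout array and 9.80 on the wildtype array, at least 20.6-fold lower in the knockout. All 12 fibroblast markers read were measured on both arrays. On the knockout and wildtype arrays Vim read 14.30 and 14.25 and Col1a2 14.43 and 14.58. Not all were so close, since the 12 differences ran from -0.95 (Col1a1) to 0.74 (Dcn), 8 lower and 4 higher. Xist, which marks cells with an inactive X chromosome, read 11.49 on the knockout array and 4.50 on the wildtype array, and the Y-linked gene Eif2s3y read 2.81 and 8.57, so the sex of the cells and the genotype cannot be told apart. Of the listed genes Pgk1 and Pdk3 are X-linked. The 354 measured X-linked genes had a median difference of -0.02, against -0.05 for 10903 autosomal genes.

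Taken as a whole, the hypoxia and glycolysis genes were somewhat lower in the knockout array than genes in general, mainly on the HIF side. Of the 36 on the array 34 were measured on both arrays, and 24 of these (70.6%) were lower in the knockout and 10 higher, where 59.8% of all 11295 measured genes were lower. That background share changed with signal. It was 54.8% of measured genes below a mean signal of 8, 69.6% at 8 to 10, 55.5% at 10 to 12 and 42.3% above. The median difference of the listed genes was -0.15, against -0.05 for all measured genes. Under 3 other scalings 22 or 23 of the 34 were lower, the share of all measured genes that were lower was 44.8% to 47.6%, and the median of the listed genes minus that of all genes was -0.10 to -0.11. That gap was -0.07 with the mean or the median over probe sets and -0.16 without a floor. The differences ran from -0.88 to 0.25. On the HIF side 12 of 15 genes were lower (80%), with a median of -0.23. On the glycolysis side 12 of 19 were lower (63.2%), with a median of -0.09. These glycolysis values were closer to the 59.8% and -0.05 of all measured genes.

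Few of these differences were large. At least 1.5-fold lower in the knockout were 2 of the 34 (5.88%), Pfkl and Eno2, where 1.61% of all measured genes were. None was 1.5-fold higher, where 0.832% of all measured genes were. The genes past 1.5-fold were lower in 65.9% of cases over all genes, and in 39.8% to 49.0% under the other scalings. By 0.32 or more on the log2 scale 8 of the 34 were lower (23.5%) and none higher, beside 9.91% and 5.96% of all measured genes. Under each of the 3 other scalings 6 were lower by that size (17.6%), without Slc16a1 and Pdk1, beside 5.60% to 6.61% of all measured genes, and with quantile normalization or loess centring Ldhb was higher by it. The 8 were Pfkl, Eno2, Pkm and Slc16a1 on the glycolysis side and Ndrg1, Bnip3, Ddit4 and Pdk1 on the HIF side. The mean over measured probe sets gave 9 (26.5%), with Hif1a and Vegfa but without Ndrg1, beside 9.34% of all genes. The median over all probe sets gave 8 (23.5%), with Vegfa but without Pfkl, beside 7.74%. At this size of 0.32, the counts with these probe set rules and with the 3 other scalings were all added after seeing the data. Eno2, Pkm, Bnip3 and Ddit4 were lower by that size in each of these settings, each on 1 measured probe set. The one spread that can be read from these arrays is how far probe sets for the same gene differ. This spread does not measure variation between cultures, embryos or arrays. Its pooled SD was 0.167 over the 17 listed genes with several measured probe sets and 0.199 over 4883 such genes of the arrays.

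**Figure D1:**
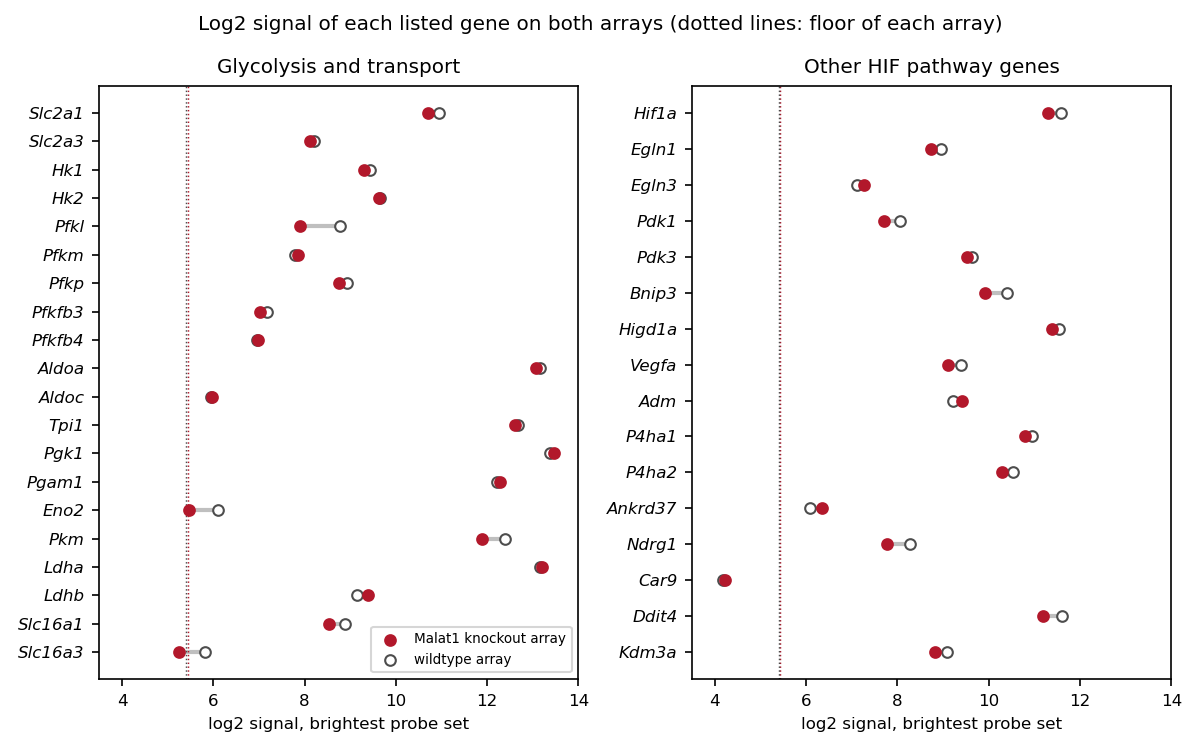
Log2 signal of the brightest probe set of each listed gene on the knockout array (filled red) and the wildtype array (open grey), with the glycolysis and transport genes on the left in pathway order and the other HIF pathway genes on the right. Dotted lines are the floors of 5.44 and 5.39, and the gaps are widest for Pfkl (7.90 against 8.78) and Eno2 (5.48 against 6.11), while most pairs nearly coincide.

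Glucose enters fibroblasts mainly through GLUT1, the product of Slc2a1, and is trapped inside by the hexokinases. Slc2a1 read 10.70 on the knockout array and 10.95 on the wildtype array, a difference of -0.25. Its other probe sets differed by -0.39 and -0.24, so all 3 were lower in the knockout. For Slc2a3, which encodes the high-affinity transporter GLUT3, the values were 8.12 and 8.21 on the knockout and wildtype arrays, a difference of -0.09 that ranged from -0.03 to 0.02 under 3 other scalings of the arrays. Hk1, the hexokinase of most tissues, differed by -0.14 and Hk2, the inducible hexokinase, by -0.01, with the sign of Hk2 turned to 0.05 to 0.06 under the other scalings. These differences of Slc2a3 and the hexokinases were smaller than the pooled SD between probe sets.

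Phosphofructokinase commits sugar to glycolysis, and its 3 subunit genes differed in size and sign. Pfkl, the liver-type subunit, read 7.90 on the knockout array and 8.78 on the wildtype array, 1.84-fold lower in the knockout. That was the largest difference of any listed gene, and 0.416% of all measured genes had one as low. The other Pfkl probe sets read 7.45 and 5.73 on the knockout array and 7.72 and 5.90 on the wildtype array, so they were lower as well, but by -0.27 and -0.17 only. With the mean over its probe sets the Pfkl difference was -0.44. Pfkm, the muscle-type subunit, differed by 0.07 (7.86 and 7.79 on the knockout and wildtype arrays), and Pfkp, the platelet-type subunit, by -0.18 at its brightest probe set and 0.09 at another. Of the 6 measured probe sets of these genes, only the brightest of Pfkl differed by more than 0.32. Pfkfb3 and Pfkfb4, which make the allosteric activator of phosphofructokinase, differed by -0.16 and 0.02.

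The middle of the pathway was nearly equal on the arrays. Aldoa, the main aldolase, read 13.06 on the knockout array and 13.15 on the wildtype array, a difference of -0.09, and its other 4 probe sets differed by -0.19 to 0.09. Tpi1, triosephosphate isomerase, differed by -0.08, with all 3 probe sets between -0.16 and -0.08. Pgk1, the first ATP-forming enzyme of glycolysis, read 13.47 and 13.37 on the knockout and wildtype arrays, a difference of 0.09, with 0.18 and 0.15 at the others. Pgam1, phosphoglycerate mutase, differed by 0.08 and the brain aldolase gene Aldoc, at 5.98 and 5.94 close to the floor, by 0.04. Gapdh, which stands between Tpi1 and Pgk1 in the pathway and is no listed gene, is read by control probe sets along its transcript that differed by -0.09, -0.07 and -0.07. Several probe sets of Aldoa, Tpi1, Pgk1 and Ldhb are of the type that can also pick up related sequences. So are the brightest probe sets of Slc2a3, Ndrg1 and Adm.

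The last steps split by gene. Pkm, the pyruvate kinase of most tissues outside liver, read 11.89 on the knockout array and 12.40 on the wildtype array, a difference of -0.51 (1.42-fold lower) from a single probe set. Among the 447 genes with a mean signal of at least 12, 8 (1.79%) were lower by 0.32 or more, and Pkm was one of them. Eno2, the neuron-type enolase, read 5.48 on the knockout array and 6.11 on the wildtype array, 1.55-fold lower in the knockout. The Eno2 value comes from 1 probe set, lies just above the floor in the knockout and was lost from the measured genes with a floor at the 75th percentile. Ldha, the lactate dehydrogenase subunit that favours lactate formation, differed by 0.06 (13.21 and 13.15 on the knockout and wildtype arrays). Ldhb, the subunit that favours pyruvate, was the glycolysis gene highest relative to the wildtype array, at 9.39 on the knockout array and 9.14 on the wildtype array, a difference of 0.25. All 4 Ldhb probe sets were higher in the knockout, by 0.25 to 0.32, so here the probe sets agree more closely than for Pfkl.

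Lactate leaves the cell through monocarboxylate transporters. Slc16a1, which encodes MCT1, read 8.55 on the knockout array and 8.89 on the wildtype array, a difference of -0.34. Slc16a3, which encodes the HIF-induced exporter MCT4, was measured on the wildtype array alone, at 5.24 on the knockout array and 5.82 on the wildtype array, at least 1.30-fold lower in the knockout. Both transporter genes were thus lower in the knockout, Slc16a1 on 1 probe set measured on both arrays and Slc16a3 as a bound only.

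**Figure D2:**
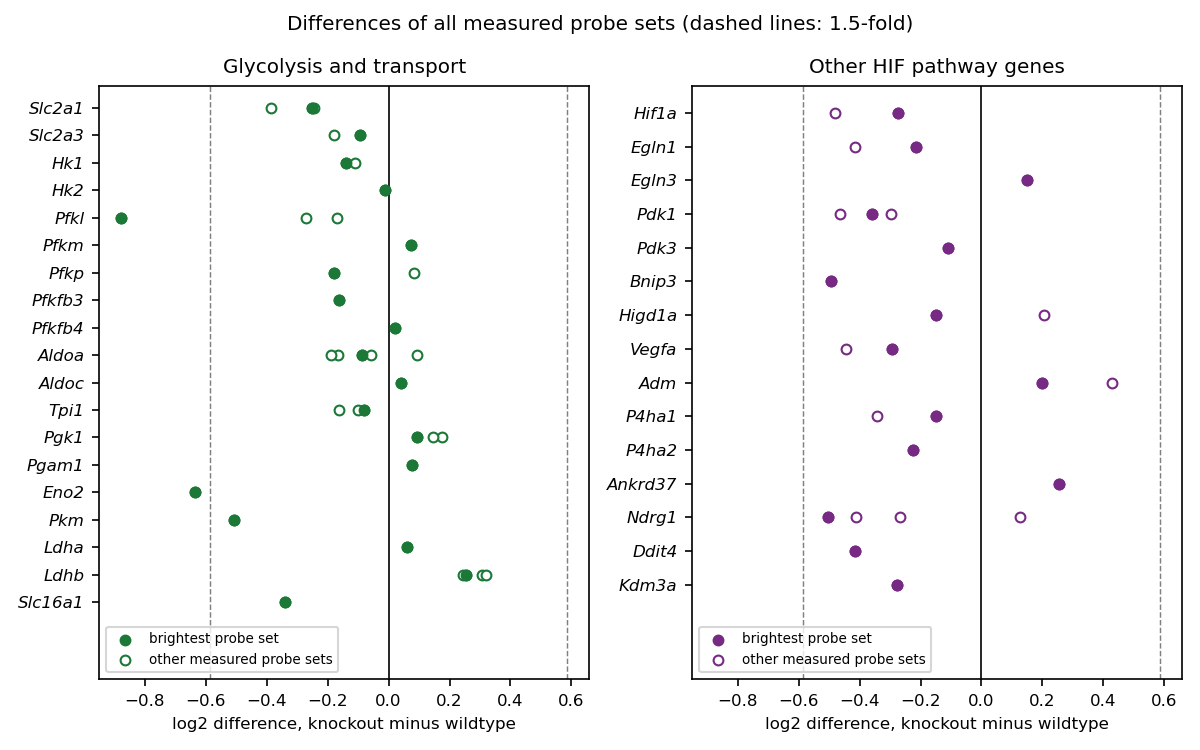
Log2 difference (knockout minus wildtype) of every probe set measured on both arrays, a row per gene, with the brightest probe set filled and the others open and dashed lines at 1.5-fold. All 3 probe sets of Slc2a1, Pfkl and Pdk1 lie left of 0 and all 4 of Ldhb right of it, while the probe sets of Ndrg1, Higd1a, Pfkp and Aldoa lie on both sides.

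Oxygen sensing genes come first on the HIF side. Hif1a, the regulated subunit of HIF-1, read 11.30 on the knockout array and 11.58 on the wildtype array, a difference of -0.28. Its second measured probe set differed by -0.48 (8.64 and 9.12 on the knockout and wildtype arrays), and 2 further ones lay below the floor on both arrays. Egln1, the prolyl hydroxylase PHD2 that marks HIF alpha for destruction and is itself a HIF target, differed by -0.21 and -0.42 at its 2 probe sets. Egln3, the related hydroxylase PHD3 and a strongly HIF-induced gene, went the other way, with 7.27 on the knockout array and 7.12 on the wildtype array, a difference of 0.15. HIF activity is set by the stability of the alpha protein, which these arrays do not measure.

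Of the HIF pathway genes that act on mitochondria, Pdk1 and Bnip3 had the larger differences. Pdk1, the kinase that shuts off pyruvate dehydrogenase under hypoxia, read 7.70 on the knockout array and 8.06 on the wildtype array, a difference of -0.36, and its other measured probe sets differed by -0.30 and -0.46. Bnip3, an outer membrane protein that promotes mitophagy, read 9.91 and 10.41 on the knockout and wildtype arrays, a difference of -0.49 (1.41-fold lower). Pdk1 thus had the same direction on all 3 measured probe sets, and Bnip3 has 1 probe set. Pdk3, another pyruvate dehydrogenase kinase, differed by -0.11. Higd1a, a protein of the inner mitochondrial membrane, differed by -0.15 at its brightest probe set and 0.20 at the next, so its direction was not settled.

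Secreted factors were split. Vegfa, the growth factor for blood vessels, read 9.11 on the knockout array and 9.40 on the wildtype array, a difference of -0.29, and its second probe set differed by -0.44. Adm, the vasodilator peptide adrenomedullin, was higher in the knockout, at 9.42 on the knockout array and 9.22 on the wildtype array, a difference of 0.20, and its second probe set read 9.17 and 8.74, a difference of 0.43. Both probe sets of each gene therefore agreed in sign, and the genes differed in opposite directions.

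The collagen prolyl hydroxylase subunits, which let collagen fold into a stable triple helix, were both slightly lower in the knockout. P4ha1 differed by -0.15 and by -0.34 at its second probe set, and P4ha2 by -0.23 (10.30 on the knockout array and 10.53 on the wildtype array). All 3 probe sets lay below 0. Beside them, the collagen gene Col1a1 differed by -0.95 at its brightest probe set and -0.33 at the other. Col1a2 differed by -0.15 and Col3a1 by -0.34 at the brightest probe set, with others down to -1.37 and -0.56.

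Among the remaining HIF targets, Ndrg1, a stress-responsive gene induced by hypoxia, read 7.78 on the knockout array and 8.28 on the wildtype array, a difference of -0.50. Its other measured probe sets differed by -0.41, -0.27 and 0.13, so the Ndrg1 mean was -0.26. Ddit4, an inhibitor of mTORC1 signalling also known as REDD1, read 11.19 and 11.61 on the knockout and wildtype arrays, a difference of -0.42. Kdm3a, a histone demethylase that removes methyl groups from histone H3 lysine 9, differed by -0.28. Ankrd37, a small ankyrin repeat protein, was higher, at 6.35 on the knockout array and 6.09 on the wildtype array, a difference of 0.25. Car9, the cell surface carbonic anhydrase that is among the most tightly oxygen-dependent HIF targets, did not reach the floor on either array (4.22 on the knockout and 4.17 on the wildtype array).

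Within the HIF side, then, Egln3, Adm and Ankrd37 were the 3 higher genes beside 12 lower ones. The same 12 and 3 were found under each of the 3 other scalings of the arrays. With the mean or the median over probe sets 11 of the 15 were lower, since Higd1a turned to 0.03 and 0.20. On the glycolysis side the 12 lower and 7 higher genes became 11 and 8 with the median difference set to 0, and 10 and 9 with quantile normalization or loess centring, through Hk2 and Slc2a3.

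**Figure D3:**
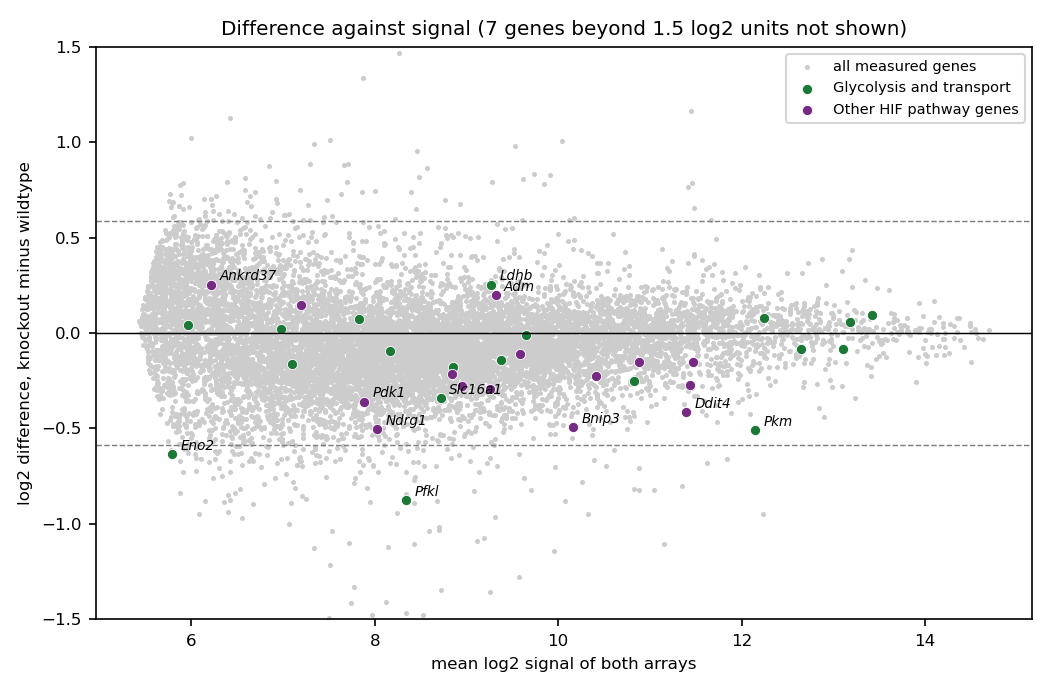
Log2 difference (knockout minus wildtype) against the mean log2 signal of both arrays for the 11295 measured genes (grey), with glycolysis and transport genes in green and other HIF pathway genes in purple, and dashed lines at 1.5-fold. Pfkl and Eno2 lie below the lower dashed line, and no listed gene reaches the upper one; 7 genes beyond the vertical axis are not drawn.

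Whether probe sets of one gene agreed was compared with the arrays at large. Of the 17 listed genes with several measured probe sets, 13 (76.5%) had all of them on the same side of 0, where 56.3% of 4883 such genes did. In 10 of the 17 (58.8%) all probe sets were lower in the knockout, beside 41.8% of all such genes. These shares are descriptions, since probe sets of one gene read the same RNA and genes of one pathway are not independent of each other.

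HIF binds the core sequences ACGTG and GCGTG, so promoters of genes that differed in each direction are shown next. They are RefSeq windows of build GRCm38.p6, from 250 bases before to 50 bases after a transcription start, printed 5′ to 3′ on the strand of the gene, with each match to ACGTG or GCGTG on either strand in capitals (a match on the other strand reads CACGT or CACGC here). The matched bases are sequence matches and not known binding sites. Pfkl is shown for its difference, Bnip3, Ddit4 and Pdk1 as HIF targets lower in the knockout, and Adm, Ankrd37 and Egln3 as the 3 that were higher. For Pdk1 the one of 2 windows that holds a match is shown.

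Pfkl: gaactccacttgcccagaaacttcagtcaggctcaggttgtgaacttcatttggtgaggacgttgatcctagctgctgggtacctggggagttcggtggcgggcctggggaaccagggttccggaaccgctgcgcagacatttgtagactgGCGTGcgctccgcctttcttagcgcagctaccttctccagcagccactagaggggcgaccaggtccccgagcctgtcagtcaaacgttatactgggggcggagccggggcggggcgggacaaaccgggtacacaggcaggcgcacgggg
Bnip3: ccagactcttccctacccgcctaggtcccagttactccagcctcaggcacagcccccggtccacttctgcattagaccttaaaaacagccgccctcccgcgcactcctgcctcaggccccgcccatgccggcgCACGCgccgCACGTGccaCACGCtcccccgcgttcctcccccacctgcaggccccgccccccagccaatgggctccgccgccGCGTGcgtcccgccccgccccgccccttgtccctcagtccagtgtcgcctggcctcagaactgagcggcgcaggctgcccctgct
Ddit4: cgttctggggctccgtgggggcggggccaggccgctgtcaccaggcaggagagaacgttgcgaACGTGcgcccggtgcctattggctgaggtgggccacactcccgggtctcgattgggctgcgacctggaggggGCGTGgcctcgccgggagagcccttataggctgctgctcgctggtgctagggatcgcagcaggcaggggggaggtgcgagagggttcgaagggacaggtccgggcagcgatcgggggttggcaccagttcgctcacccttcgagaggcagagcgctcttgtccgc
Pdk1: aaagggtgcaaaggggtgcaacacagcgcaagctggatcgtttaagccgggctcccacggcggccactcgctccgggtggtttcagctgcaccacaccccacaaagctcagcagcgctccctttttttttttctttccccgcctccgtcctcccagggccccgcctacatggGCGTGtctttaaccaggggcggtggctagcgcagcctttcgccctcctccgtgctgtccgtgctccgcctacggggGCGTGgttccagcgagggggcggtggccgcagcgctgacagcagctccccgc
Adm: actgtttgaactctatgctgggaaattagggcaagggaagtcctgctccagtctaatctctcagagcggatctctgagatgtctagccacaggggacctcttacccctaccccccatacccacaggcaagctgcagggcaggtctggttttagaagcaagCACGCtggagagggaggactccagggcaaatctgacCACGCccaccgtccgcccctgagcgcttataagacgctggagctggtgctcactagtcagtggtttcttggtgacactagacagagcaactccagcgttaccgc
Ankrd37: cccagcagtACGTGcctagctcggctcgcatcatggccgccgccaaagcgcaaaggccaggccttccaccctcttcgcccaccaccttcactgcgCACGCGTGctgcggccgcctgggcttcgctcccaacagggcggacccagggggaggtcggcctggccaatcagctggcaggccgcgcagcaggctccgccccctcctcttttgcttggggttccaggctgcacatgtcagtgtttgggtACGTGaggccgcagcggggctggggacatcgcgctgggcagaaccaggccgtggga
Egln3: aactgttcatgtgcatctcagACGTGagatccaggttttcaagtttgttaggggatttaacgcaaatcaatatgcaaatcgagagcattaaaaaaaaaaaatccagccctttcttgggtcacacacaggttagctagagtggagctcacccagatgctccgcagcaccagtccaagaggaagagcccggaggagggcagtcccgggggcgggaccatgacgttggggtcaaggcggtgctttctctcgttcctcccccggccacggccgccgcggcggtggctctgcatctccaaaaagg

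The windows lie for Pfkl at chr10:78009758-78010057 (minus strand), for Bnip3 at chr7:138909457-138909756 (minus strand), for Ddit4 at chr10:59951721-59952020 (minus strand), for Pdk1 at chr2:71872974-71873273 (plus strand). Those of the genes that were higher lie for Adm at chr7:110627407-110627706 (plus strand), for Ankrd37 at chr8:45999801-46000100 (minus strand) and for Egln3 at chr12:54203825-54204124 (minus strand).

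The windows printed were chosen among those with a match, and they include genes of both directions. Eno2 and Tpi1, lower in the knockout, have a window without a match. Bnip3 has 5 matches, of which a pair covers one palindrome, CACGTG, the site that other basic helix-loop-helix factors also read. Ankrd37 has 4, Ddit4, Pdk1 and Adm have 2 each, and Pfkl and Egln3 have 1 each. Windows were found for 36 of the 39 listed genes, and 41 of their 52 windows (78.8%) held either motif, where 62.0% of 11761 windows of measured genes and 43.8% of all 32851 windows did. ACGTG alone was in 53.8% of the windows of listed genes and 25.5% of those of measured genes. GCGTG was in 57.7% and 50.4%. ACGTG was in 48.5% of the windows on the glycolysis side and 63.2% of those on the HIF side. Since the list holds HIF targets and glycolysis genes, many of which HIF controls, a high share of the motif is no finding. Of the measured listed genes with a window, 16 of 22 that were lower in the knockout had ACGTG, and 7 of 10 that were higher, so ACGTG was present in genes of both directions.

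The rest of the pathway was then looked at through further genes. HIF components outside the list were close to the arrays as a whole, with 8 of 14 measured genes lower and a median of -0.07, which turned to 0.01 with quantile normalization or loess centring. Arnt2, a partner subunit of HIF alpha best known from neurons, differed by -0.50 on 1 probe set. Arnt, the general partner, differed by -0.06 at its brightest probe set, and its 3 measured probe sets ran from -0.31 to 0. Hif3a, an alpha subunit that can restrain the others, differed by 0.31, the coactivator Crebbp by -0.29 and Rbx1, of the ubiquitin ligase that destroys HIF alpha, by -0.29. Epas1, which encodes HIF-2 alpha, differed by -0.21 and Vhl, the adaptor of that ligase, by -0.20.

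Further HIF targets had 25 of 36 measured genes lower (69.4%) and a median of -0.08, but under the other scalings 17 to 20 were lower and the median lay between -0.02 and 0.00. By 0.32 or more 8 of the 36 (22.2%) were lower and 3 higher, beside 9.91% and 5.96% of all measured genes. For these targets that count was made on the values as given only, not under the other scalings. Ak4, a mitochondrial adenylate kinase, differed by -0.66 at its brightest probe set (7.61 and 8.27 on the knockout and wildtype arrays), but its measured probe sets ran from -0.66 to 0.32. Nfil3, a transcription repressor, differed by -0.54 and Plod1, a collagen lysyl hydroxylase, by -0.46. Ppfia4, a liprin induced by hypoxia, differed by 0.48. Other well-known HIF targets were nearly equal at the brightest probe set, with Fam162a at -0.06, Hilpda at -0.03, Plod2 at -0.01 and Mif at -0.01. The other measured probe set of Plod2 differed by -0.19.

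Further glycolysis genes leaned the other way. Of 21 measured genes 14 were higher in the knockout array and 7 lower, with a median of 0.08, and 16 were higher under each other scaling. Slc2a4, the insulin-regulated transporter GLUT4, read 6.12 on the knockout array and 5.51 on the wildtype array, 1.53-fold higher but close to the floor. Pklr, the pyruvate kinase of liver and red cells, differed by 0.39 at its brightest probe set and 0.10 at the other, and Hk3, a hexokinase of blood cells, by 0.31. Pgm1, a phosphoglucomutase that links glycogen to glycolysis, differed by -0.30. Many of these are isozymes of other tissues, and their direction was not the one of Pfkl, Pkm or Slc2a1. Several of the higher genes besides Slc2a4 also read close to the floor, as did a lower one.

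**Figure D4:**
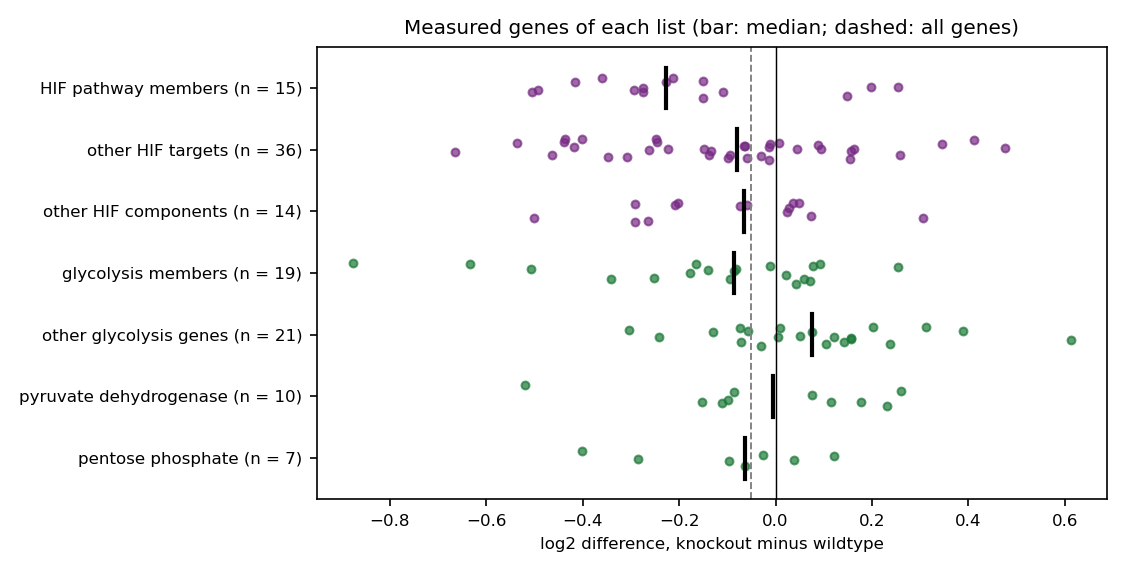
Log2 difference (knockout minus wildtype) of each measured gene in 7 lists, a point per gene, with the median of each list as a black bar and the median of all measured genes (-0.05) as a dashed line. HIF pathway genes of the main list sit lowest, with a median of -0.23, and other glycolysis genes highest, with a median of 0.08.

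Marker genes of other cells of the embryo were read beside these results. Of 13 macrophage markers 12 were measured and 10 of these were lower in the knockout, with a median of -0.38 and a summed linear signal of 3613 on the knockout array and 4518 on the wildtype array. Of 12 fibroblast markers 8 were lower, with a median of -0.25. Endothelial markers were higher, 5 of 5 measured of 9, with a median of 0.41 and sums of 1626 and 1124 on the knockout and wildtype arrays, while Pecam1, Cdh5, Tie1 and Tek lay below the floor on both. Epithelial markers were higher in 6 of 7 measured of 10, with a median of 0.47 and sums of 1686 and 1344. Skeletal muscle markers had a median of 0.01 over 6 measured of 12, neural markers 0.17 over 7 measured of 11, and no erythroid marker was measured on both arrays. The part of such cells in the differences above was not tested, and in RNA from a whole culture fewer cells of a type and less RNA per cell cannot be told apart.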

How the data were processed

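RNA from 1 Malat1 knockout and 1 wildtype MEF culture was hybridized to Affymetrix Mouse430_2 arrays per the labels' protocols, which start from 100 ng of total RNA and use 3′ amplification. Each deposited value is taken here as a log2 signal of a probe set, from the range (2.09 to 14.71). How the authors summarized and normalized it is not given in the labels. Of 45101 rows, 1211 had the same value on both arrays, as had 119 of the 11295 measured genes.

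Probe sets were named through the platform's annotation, and chromosomes came from RefSeq GRCm38.p6 by gene identifier. A gene was represented by its probe set with the highest mean, counted as measured at or above the median of 45037 non-control probe sets of each array. For a gene measured on 1 array the difference is a bound against the floor of the other. With 1 array per genotype no test was possible, so sizes of 1.5-fold and of 0.32 on the log2 scale stand in for calls. Every listed gene is named, and of other lists up to 4 measured genes with the largest difference, with Gapdh as a control of the array. The exceptions Arnt, Epas1, Vhl, Fam162a, Hilpda, Plod2, Mif, Pdha1, Pdhb, Dlat, Pdhx, Vim, Col1a2 and Col3a1, and cell type markers below the floor, were chosen after their values were seen. The genes, lists and sizes were chosen with earlier results of these data known. Alternatives were 3 other scalings, other floors, values of 16 or 64 added to linear signals, and other rules for choosing probe sets. The calculations used Python 3.11.15, pandas 2.3.3 and statsmodels 0.14.6 and were tested on simulated data.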

Additional observations from a re-analysis of the deposited data

How the results depend on the processing

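No paired analysis was possible because there is 1 array of each genotype. With the median difference of measured probe sets set to 0, the median became -0.024 for the glycolysis genes, -0.16 for the HIF genes and -0.089 for all listed genes. Quantile normalization gave -0.17 for the HIF genes and -0.089 for all, and loess centring gave -0.092 for all. The median difference over all probe sets of a gene gave -0.10 for all. These medians kept their sign in every alternative. The count of listed genes at least 1.5-fold lower was 1 with the median set to 0, with a floor at the 75th percentile and with 16 or 64 added, where Eno2 was lost, and 1 with the mean or the median over probe sets, where Pfkl was lost. It was 8 at 0.32 on the log2 scale and 0 at 2-fold.

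Of all genes, 182 were at least 1.5-fold lower and 94 higher, so 65.9% of these were lower. That share was 48.0% with the median set to 0 (146 higher), 39.8% with quantile normalization (109 lower, 165 higher) and 49.0% with loess centring. Without a floor 336 were higher, with a floor at the 40th percentile 148, and at the 75th percentile 67 were lower and 23 higher. Adding 16 gave 50 higher, and adding 64 gave 73 lower and 28 higher. The median over probe sets gave 57 higher. At 0.32 on the log2 scale 1119 were lower and 673 higher (633 lower with quantile normalization and 689 with loess centring, where 1 listed gene each was higher, settings chosen after seeing the data), and at 2-fold 30 and 8.

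Single listed genes gave 366 values under the alternatives, of which 9 moved by over the SD between probe sets. A change of sign under any alternative occurred for 4 genes, Hk2, Slc2a3, Pfkp and Higd1a. Signals near the floor, as for Eno2, Aldoc and Ankrd37, are the least certain.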

Other observations

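Enzymes next to glycolysis showed no common direction. Of 10 measured genes of the pyruvate dehydrogenase complex, its regulators and the first steps beyond it, 5 were higher and 5 lower on the knockout array, the median being near 0 (-0.0045, and 0.04 to 0.06 under the other scalings). Dld, the dihydrolipoamide dehydrogenase subunit, read 9.14 on the knockout array and 9.66 on the wildtype array, a difference of -0.52, while the other subunit genes Pdha1, Pdhb, Dlat and Pdhx differed by -0.10, 0.08, -0.11 and 0.12. Pcx, pyruvate carboxylase, differed by 0.26, and Pdp1, a phosphatase that opposes the kinase Pdk1, by 0.23. In the pentose phosphate pathway 5 of 7 measured genes were lower, with a median of -0.06. Tkt, transketolase, read 12.53 and 12.81 on the knockout and wildtype arrays, with differences of -0.31 and -0.28 at its 2 probe sets, and H6pd, the hexose-6-phosphate dehydrogenase of the endoplasmic reticulum, differed by -0.40.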
